A study of Mus musculus with 4 samples.

Results

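The Hox genes of the HoxA, HoxB, HoxC and HoxD clusters were examined in lists of RNA polymerase II (Pol II) peaks from mouse osteoblasts. Members were the protein-coding genes of a RefSeq table for GRCm38 (the assembly behind mm10) whose symbols are Hoxa, Hoxb, Hoxc or Hoxd followed by a number, which gave 39 genes of the 21883 protein-coding genes on assembled chromosomes. Pol II was mapped by ChIP-seq: an antibody pulls down the protein from fixed and sheared chromatin, and the DNA that comes with it is read. The cells were grown from pieces of bone, passaged as adherent mesenchymal stem cells and kept for 3 days in osteogenic medium, and the labels call the animals young. The series has 1 Pol II library and 1 input library of cells whose titles say WT, and 1 of each from cells treated with OSS_128167, an inhibitor of the deacylase SIRT6. The labels state neither the dose and duration of the treatment nor the bones and number of animals, and their treatment field names OSS_128167 for all 4 samples, so the groups rest on the sample titles. Peak lists were given for the 2 samples labelled with a Pol II antibody. The peaks of the treated sample carry the name of SIRT6, the target of the inhibitor, and not that of the inhibitor or of Pol II, so that calling them Pol II peaks rests on the sample's label. With 1 library per condition no difference between the conditions was tested.

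Hox genes encode homeodomain transcription factors that give cells their position along the head-to-tail axis and along the limbs. Within a cluster the genes with low paralog numbers act in anterior and those with high numbers in posterior structures, and cells taken from an adult bone often keep the Hox pattern of their place of origin. Where Hox genes are silent, Polycomb proteins usually cover the cluster, and trithorax proteins such as Kmt2a keep active members open.

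The deposited lists differ in size. There were 1694 peaks for untreated and 40748 for OSS_128167 cells, of which 109 and 6568 had a false discovery rate (FDR) of at most 0.05. The sequencing depth is unknown, since the lists hold no read totals. Of 9 osteoblast markers, 4 (Runx2, Sp7, Col1a1 and Col1a2) had a peak in the OSS_128167 list, each with an FDR of at most 0.05, while Alpl, Bglap, Ibsp, Spp1 and Dmp1 had none there. In that list 3 of 5 macrophage markers, 3 of 4 endothelial, 0 of 4 adipocyte and 2 of 3 chondrocyte markers also had a peak, where 37.8% of all protein-coding genes had one. With an FDR of at most 0.05, 2 macrophage markers (Cd68 and Adgre1), 1 chondrocyte marker (Sox9) and 0 endothelial markers had a peak. At that limit 11.5% of all protein-coding genes had one. In the untreated list 2 of 9 osteoblast markers (Runx2 and Col1a2) and 1 of 4 adipocyte markers (Pparg, with 3 peaks) had a peak. Of these, 0 passed the FDR limit of 0.05. The shares of all protein-coding genes in that list were 2.3%, and 0.133% at that limit. Runx2 (318.8 kb) and Pparg (129.5 kb) are long genes. Macrophage, endothelial and chondrocyte markers had 0 untreated peaks. The contribution of other cell types to the peaks was not tested.

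Hox genes were almost free of listed Pol II peaks. In the OSS_128167 list 1 of the 39 genes, Hoxc13, had a peak inside it or within 1000 bp (2.56%, exact Clopper-Pearson 95% interval 0.0649 to 13.5, which covers counting only). By the same rule 37.8% of all protein-coding genes had a peak, and 29.9% of the 14010 genes whose length lay between that of the shortest and the longest Hox gene (1784 to 44009 bp). Only Hoxa3, Hoxb3 and Hoxd3 reach the upper part of that range, and the next longest member, Hoxc4, has 18760 bp. The range is thus no match of lengths, and the effect of length on these shares was not tested. With peaks of an FDR of at most 0.05, 0 of 39 Hox genes had a peak. That allows a share of up to 7.69% when 3 counts are taken as the limit, the rule used below for other counts of 0, and of up to 9.03% by the Clopper-Pearson interval, against 11.5% of all protein-coding genes and 9.62% of those in the Hox length range. Genes of a cluster lie side by side, so the 39 genes amount to 4 places in the genome and not to 39 independent ones, and no p-value is attached to these shares. Counting only peaks that lie inside the gene, the shares of all protein-coding genes were 34.4% for the full list and 9.97% at that FDR limit, with 1 and 0 Hox genes. In the untreated list 0 of 39 had a peak, against 2.3% of all protein-coding genes and 1.07% of those in the length range, so the empty clusters of that list are near what most genes show there. Inside genes only, the untreated counts were 0 of 39 and 2.18%. At an FDR of at most 0.05 they were 0 of 39 against 0.133% of all protein-coding genes, 0.143% of those in the length range and 0.114% with peaks inside the gene only.

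The peak at Hoxc13 was an ordinary member of its list. Hoxc13 is known for its role in hair and nail formation and lies on chromosome 15 from 102921131 to 102928814. The peak covered 299 bp from 102923485 to 102923783, which is 2354 bp inside the lower boundary of the gene and 3.89% of its length. Its fold enrichment over background, as the authors give it, was 2.90, near the median of 2.87 of the list, and 41.4% of the peaks in the list had a higher fold. Its p-value in the deposited list was 0.000338, its FDR 0.290 and its pileup (the height of the read signal) 8, which is also the median of the list. With that FDR it does not pass the limit of 0.05. Exons of Hoxc13 were not used here, and the promoter table has no entry for this gene, so the peak is described only as lying inside the gene.

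All the other members had no peak in either list. HoxA, with 11 genes on chromosome 6 from 52155367 to 52260880, had none, among them Hoxa2, Hoxa3, Hoxa4, Hoxa5, Hoxa6, Hoxa7, Hoxa9, Hoxa10, Hoxa11 and Hoxa13. In HoxB the genes without a peak were Hoxb1, Hoxb2, Hoxb3, Hoxb4, Hoxb5, Hoxb6, Hoxb7, Hoxb8, Hoxb9 and Hoxb13, the 10 genes of chromosome 11 from 96194316 to 96368254. In HoxC, 8 of 9 genes between 102921131 and 103036856 on chromosome 15 had none, namely Hoxc4, Hoxc5, Hoxc6, Hoxc8, Hoxc9, Hoxc10, Hoxc11 and Hoxc12. In HoxD they were Hoxd1, Hoxd3, Hoxd4, Hoxd8, Hoxd9, Hoxd10, Hoxd11, Hoxd12 and Hoxd13, the 9 genes of chromosome 2 from 74668225 to 74765142. By paralog number, 1 of 4 genes of group 13 had a peak and 0 of 35 genes of groups 1 to 12. Posterior genes known from the limb, such as Hoxa11, Hoxd11 and Hoxa13, thus stood with the anterior genes Hoxa2 and Hoxb1 among those with no listed peak. A gene with no listed peak may still carry Pol II, since the thresholds for listing a peak are not known. The lowest pileups listed were 5 (OSS_128167) and 4.35 (untreated).

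The whole spans of the clusters, and not only the genes, held few peaks. Widened by 1000 bp on each side they add up to 500.1 kb, in which the OSS_128167 list had 1 peak, or 2 per Mb, against 15.1 per Mb between the first and the last gene of the chromosomes. At the density of the whole genome a length of 500.1 kb would hold 7.56 peaks. Peaks covered 0.0598% of the spans and 0.524% of the genome. The 4 chromosomes as a whole had 16.9 (chromosome 6), 19.3 (11), 17.9 (15) and 17.3 (2) peaks per Mb. The untreated list had 0 peaks in the spans, where its density over the genome would give 0.300.

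A single cluster without a peak was not rare among stretches of its size. When the genome was divided into tiles as long as each widened span, an OSS_128167 peak was found in 67.5% of tiles of the length of HoxA, 79.9% (HoxB), 70.3% (HoxC) and 65.1% (HoxD). At most 1 peak, the count of HoxC, was found in 55.1% of tiles of its length. Among tiles rich in genes, as the clusters are, fewer were empty. With at least 8 protein-coding genes in the tile, 12.9% of 202 tiles (HoxA), 7.14% of 490 (HoxB) and 12.3% of 179 (HoxD) had no peak, and 26.4% of 250 (HoxC) had at most 1. Put the other way, 87.1%, 92.9%, 88.4% and 87.7% of the gene-rich tiles at the lengths of HoxA, HoxB, HoxC and HoxD had a peak. Untreated peaks were found in 2.97%, 6.12%, 4.0% and 3.35% of these gene-rich tiles and in 4.45%, 6.79%, 4.88% and 4.2% of all tiles, so an empty cluster is what most tiles show in that list.

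**Figure D1:**
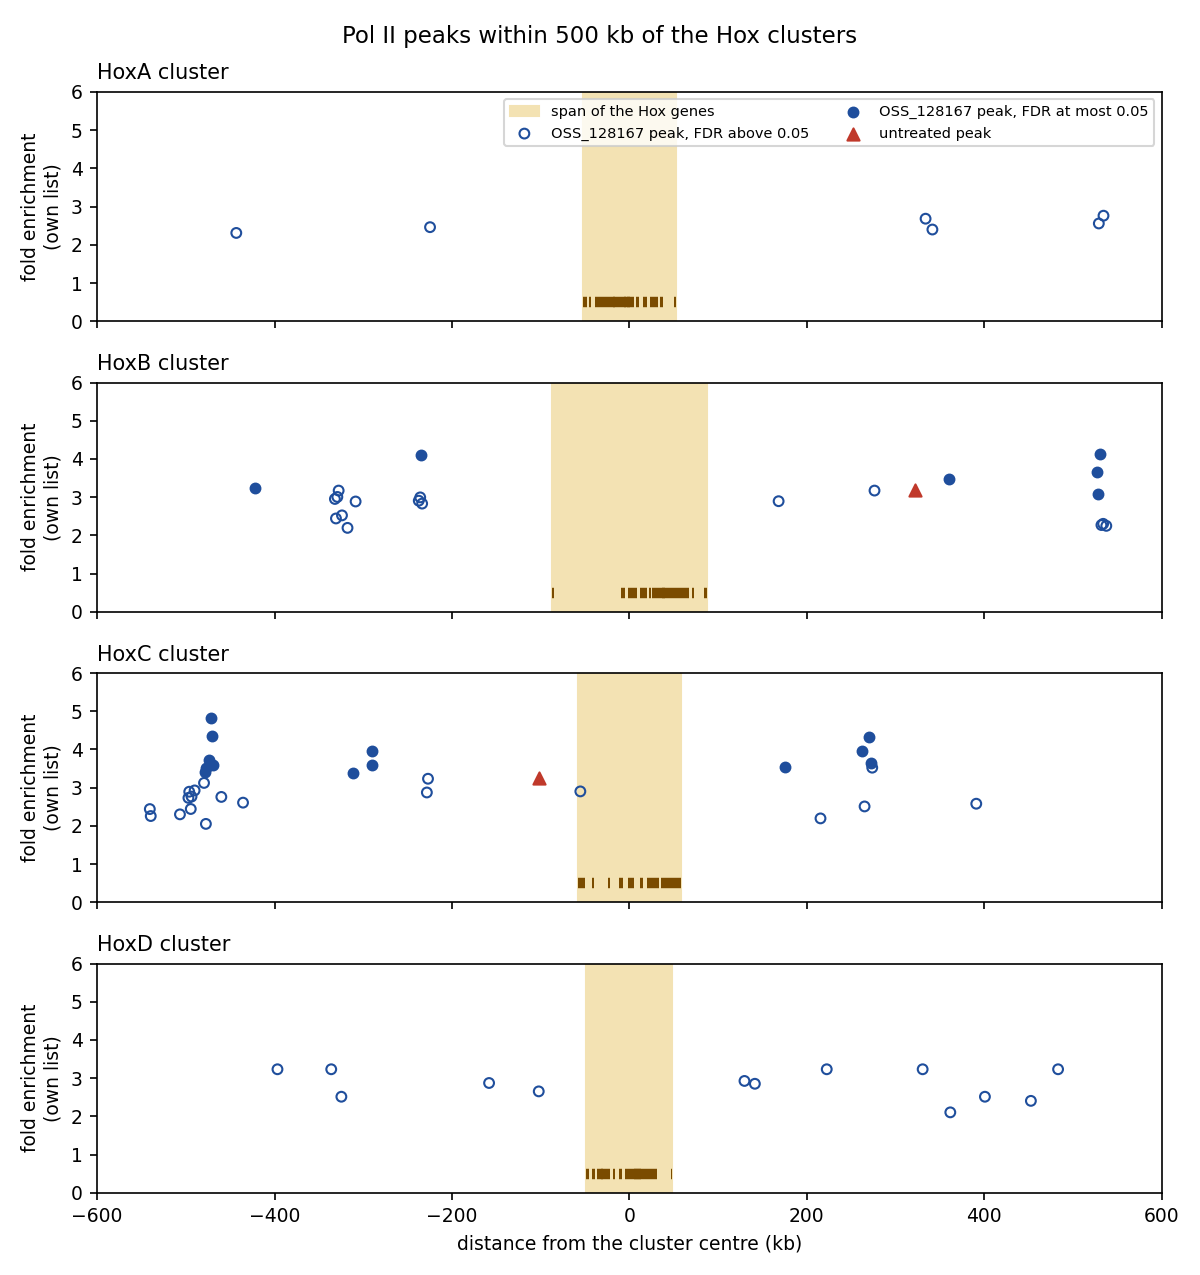
Pol II peaks by distance from the centre of each Hox cluster (kb, horizontal axis) and the authors' fold enrichment within the own list (vertical axis), up to 500 kb beyond either end of the cluster. The shaded span holds the Hox genes (brown bars). Circles are OSS_128167 peaks, filled at an FDR of at most 0.05, and triangles are untreated peaks. The peak at Hoxc13, with a fold of 2.90, is the only symbol within a shaded span.

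The peaks nearest to the clusters lay at neighbouring genes or between genes. HoxA sat in the longest stretch free of OSS_128167 peaks among the 4 clusters, of 558.1 kb, from a peak inside Skap2 (a signalling adaptor) 171.7 kb below the cluster to a peak 280.9 kb above it. Of the 40645 gaps between peaks of that list, which had a median of 32.1 kb, 0.435% were at least as long. The gap around HoxB was 401.4 kb, a length reached by 1.08% of gaps, and that around HoxD was 231.5 kb, reached by 4.38%. At HoxC the peak inside Hoxc13 parted 2 gaps of 171.3 and 230.2 kb, lengths reached by 8.26% and 4.45% of gaps. A longer gap is more likely to hold any given gene, so these shares describe the gaps and test nothing.

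Distances to the nearest peak were taken for each member. They follow from the same peaks as the counts and gaps and add no separate evidence. The nearest OSS_128167 peak lay at a median of 101.3 kb from a Hox gene, with a range of 0 (Hoxc13) to 275.2 kb (Hoxa13), while the median over all protein-coding genes was 7.20 kb and the upper quartile 36.0 kb. Of the 39 genes 38 were farther from a peak than the median gene and 36 farther than the upper quartile, the exceptions to the latter being Hoxc13, Hoxc12 (13.0 kb) and Hoxc11 (30.7 kb). More than 100 kb separated 20 Hox genes from any peak, as it did 8.83% of all protein-coding genes. By cluster the medians were 221.2 kb in HoxA, 144.8 kb in HoxB, 80.9 kb in HoxD and 53.2 kb in HoxC. The ranges of HoxA (171.7 to 275.2 kb) and HoxB (81.0 to 172.7 kb) overlapped only at their ends.

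Distances of genes in a cluster follow their position, since neighbours share the nearest peak. That peak lay outside the cluster for HoxA, HoxB and HoxD and inside Hoxc13 for HoxC. In HoxA the distance grew from Hoxa2 (178.8 kb) to Hoxa13, and in HoxC it grew from Hoxc13 to Hoxc4 (94.3 kb). In HoxD the farthest gene was Hoxd4 (107.4 kb), with Hoxd13 at 53.7 kb and Hoxd1 at 80.9 kb at the ends. Hoxb13, which lies apart from the rest of HoxB, was 146.5 kb from a peak. The 16 genes of paralog groups 9 to 13 had a median of 67.4 kb (0 to 275.2 kb) and the 23 of groups 1 to 8 a median of 127.6 kb (66.8 to 232.0 kb), so the ranges overlap widely. Peaks with an FDR of at most 0.05 were farther off, at a median of 668.2 kb from a Hox gene against 117.4 kb from a protein-coding gene, and the nearest of them to any member was the one at Smug1, 117.1 kb from Hoxc4.

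**Figure D2:**
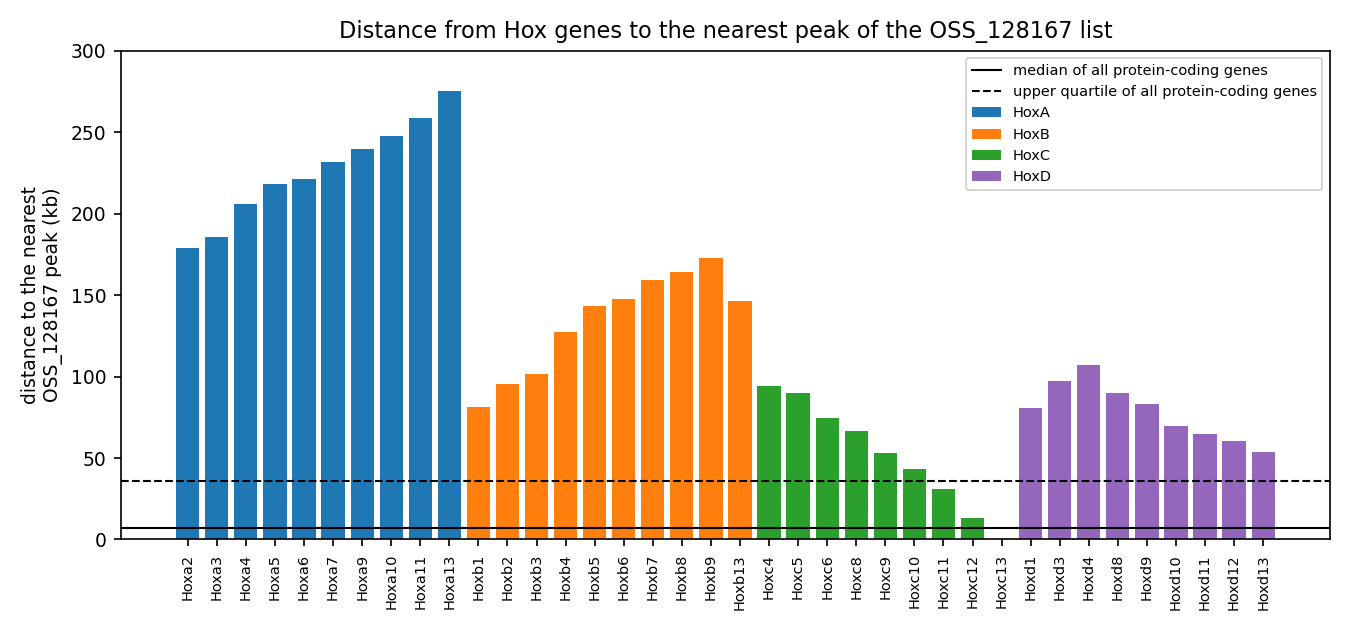
Distance in kb from the Hox genes named in the text to the nearest peak of the OSS_128167 list (vertical axis), with genes grouped by cluster and ordered by paralog number (horizontal axis). The solid line is the median (7.20 kb) and the dashed line the upper quartile (36.0 kb) of all protein-coding genes. Hoxc13, Hoxc12 and Hoxc11 are the 3 genes below the dashed line.

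In the untreated list the peak nearest to a member lay 43.5 kb below Hoxc13, with a fold of 3.26 and an FDR of 1, and no annotated gene within 1000 bp. HoxA was 696.9 kb from its nearest untreated peak, at Nfe2l3, and HoxB 234.2 kb from a peak inside Skap1. HoxD lay in a stretch of 50.9 Mb without an untreated peak, the third longest of 1595 gaps, on a chromosome with only 46 untreated peaks. The median distance from a Hox gene to an untreated peak, 696.9 kb, was shorter than the 1559 kb of all protein-coding genes.

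Start sites were examined apart from whole genes. RefSeq promoter entries for GRCm38.p6, which run from 250 bases before to 50 after a start site, matched 22 of the 39 genes with 24 start sites. Of these 22 genes 0 had an OSS_128167 peak within 1000 bp of a start site, which allows up to 13.6%, against 5.7% of the 17491 protein-coding genes with an entry. A count of 0 is thus near the background at start sites, unlike the count over whole genes. At an FDR of at most 0.05 the background was 2.43%. For untreated peaks 0 of 22 genes stood against 0.189%, and against 0.0457% at that FDR limit.

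The Hox promoters ranged from poor to very rich in CG dinucleotides, with 4 to 45 per 300 bases and a median of 14.5, against 13 in all 21262 promoters. Among all promoters the share with an OSS_128167 peak ran from 4.08% of those with 0 to 4 CG to 7.15% of those with 30 to 34, and was 4.38% of those with 35 or more. Of 12066 promoters with at least 10 CG 6.17% had a peak, and of the 17 such Hox promoters 0, too few to read against that share. The Hox promoters with the most and a promoter with the fewest CG are shown with that of Prrx1, a limb homeobox gene outside the clusters that did have a start-site peak, and capitals mark CG.
Hoxa13, chr6:52260831-52261130, minus strand, 45 CG: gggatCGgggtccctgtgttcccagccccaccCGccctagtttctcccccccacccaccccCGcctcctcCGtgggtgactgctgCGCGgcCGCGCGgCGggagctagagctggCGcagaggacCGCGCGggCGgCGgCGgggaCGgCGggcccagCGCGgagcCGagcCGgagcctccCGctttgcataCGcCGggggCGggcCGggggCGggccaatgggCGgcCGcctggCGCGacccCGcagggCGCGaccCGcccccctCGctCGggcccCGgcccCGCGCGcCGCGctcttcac
Hoxd4, chr2:74721728-74722027, plus strand, 4 CG: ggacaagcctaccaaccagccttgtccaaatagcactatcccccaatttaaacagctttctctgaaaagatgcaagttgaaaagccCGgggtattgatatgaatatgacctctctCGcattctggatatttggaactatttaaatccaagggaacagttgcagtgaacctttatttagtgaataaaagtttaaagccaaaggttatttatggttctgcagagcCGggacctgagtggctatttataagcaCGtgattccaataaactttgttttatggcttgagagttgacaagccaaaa
Prrx1, chr1:163313601-163313900, minus strand, 6 CG: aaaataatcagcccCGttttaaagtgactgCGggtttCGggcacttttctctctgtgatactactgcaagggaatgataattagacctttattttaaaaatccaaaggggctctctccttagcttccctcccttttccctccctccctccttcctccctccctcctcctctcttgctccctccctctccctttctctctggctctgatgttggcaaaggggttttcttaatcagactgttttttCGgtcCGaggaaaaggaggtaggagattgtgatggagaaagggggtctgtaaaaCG
Hoxa13 and Hoxd4 span the range of the members, and the promoter with a peak lies at the poor end of it.

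**Figure D3:**
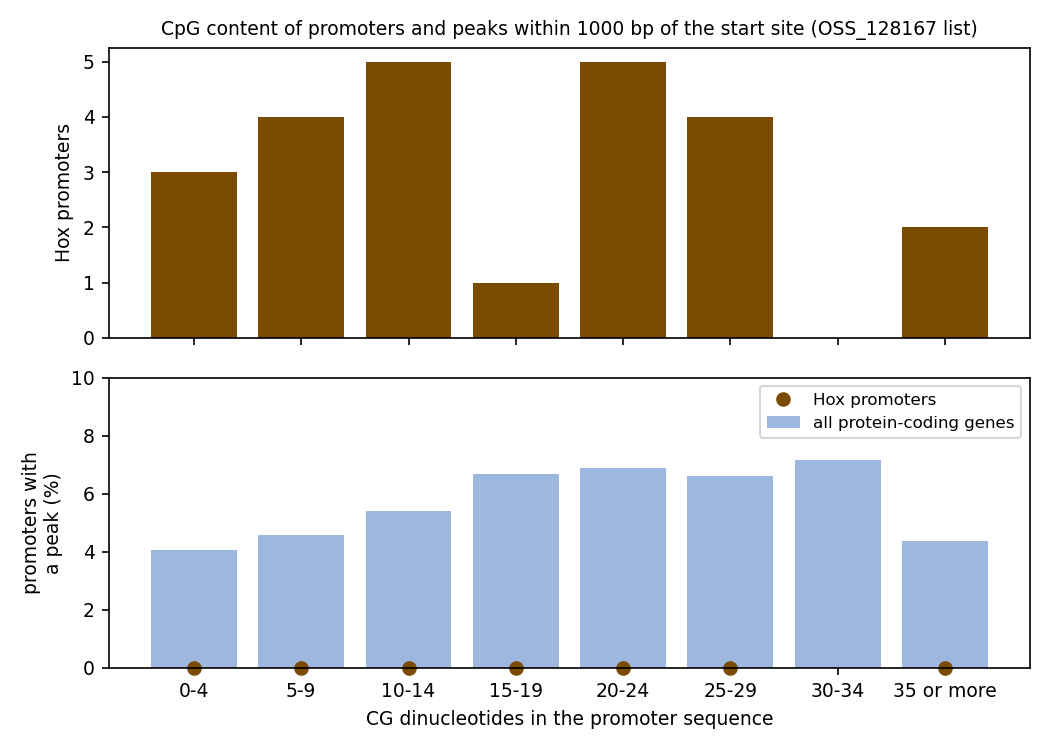
The upper panel counts Hox promoters and the lower panel gives the share of promoters with an OSS_128167 peak within 1000 bp of the start site (%, bars for all protein-coding genes, points for Hox promoters), both by the number of CG dinucleotides in 300 bases. All Hox points lie at 0, where the bars lie between 4.08% and 7.15%.

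Hox proteins bind DNA together with Pbx partners, and composite sites for such pairs are known in Hox regulatory regions. The letters TGATTNAT, searched on both strands, occurred in 2 of 24 Hox promoters (8.33%) and in 2.75% of all promoters. The 2 promoters are shown with the match in capitals. In both it lies on the opposite strand, so that the capitals read as the reverse complement.
Hoxa2, chr6:52164782-52165081, minus strand: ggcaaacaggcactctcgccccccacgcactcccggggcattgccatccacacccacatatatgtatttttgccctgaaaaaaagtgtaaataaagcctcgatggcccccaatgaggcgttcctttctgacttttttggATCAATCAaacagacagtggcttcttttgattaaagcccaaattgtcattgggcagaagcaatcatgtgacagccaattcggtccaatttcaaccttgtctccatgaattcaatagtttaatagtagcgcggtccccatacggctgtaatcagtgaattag
Hoxd11 (the upper of its start sites), chr2:74682073-74682372, plus strand: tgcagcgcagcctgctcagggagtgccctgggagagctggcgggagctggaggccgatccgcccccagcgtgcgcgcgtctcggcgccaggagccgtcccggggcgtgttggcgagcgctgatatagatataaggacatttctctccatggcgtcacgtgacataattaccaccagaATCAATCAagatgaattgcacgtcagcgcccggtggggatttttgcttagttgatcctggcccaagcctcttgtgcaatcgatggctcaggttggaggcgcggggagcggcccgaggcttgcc
The match begins 111 bases before the start site in Hoxa2 and 73 bases before it in Hoxd11, and neither gene had a peak. CCAAT occurred in 15 Hox promoters (62.5%, against 38.2% of all), TATAAA in 4 (16.7% against 12.6%) and AGGTCA repeated after 5 bases, a form of retinoic acid receptor site, in 0, with 1 match among all promoters. These matches are letters in a window and not shown to be bound sites.

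The noncoding genes within the clusters had no peaks. Of 31 long noncoding RNA and microRNA genes in the widened spans 0 had a peak in either list. Of all long noncoding RNA genes 17.3%, and of all microRNA genes 7.98%, had one in the OSS_128167 list. In the untreated list these shares were 0.809% and 0%. The limit for 0 of 31, 9.68%, takes the genes as independent, though they lie in the same 4 places. The count largely follows from that of the spans and adds no separate evidence. Among the 31 genes were Hotair, a transcript of HoxC known for its interaction with Polycomb proteins, Hotairm1 and Hoxa11os in HoxA, and Haglr in HoxD. Hottip, which lies just past Hoxa13 and is known to activate posterior HoxA genes, had none either. Mature miRNAs of the clusters fall into families that repeat across clusters, because the clusters arose by duplication, and they repress Hox and other messages. Those of the families miR-10 and miR-196 are shown with miR-615, from RefSeq on GRCm38.p6, with the seed (bases 2 to 8) in capitals.
mmu-miR-10a-5p, HoxB, chr11:96317186-96317208, plus strand: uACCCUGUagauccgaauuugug
mmu-miR-10b-5p, HoxD, chr2:74726074-74726096, plus strand: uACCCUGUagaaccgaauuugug
mmu-miR-196a-5p, HoxB at chr11:96265187-96265208 and HoxC at chr15:102973365-102973386, plus strand: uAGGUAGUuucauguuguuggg
mmu-miR-196b-5p, HoxA, chr6:52230129-52230150, minus strand: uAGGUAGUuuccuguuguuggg
mmu-miR-615-3p, HoxC, chr15:103014969-103014990, plus strand: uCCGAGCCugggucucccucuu
Members of the miR-10 family share the seed ACCCUGU and those of miR-196 the seed AGGUAGU. The nearest OSS_128167 peak lay 132.1 kb from miR-10a-5p, 111.5 kb from miR-10b-5p and 246.5 kb from miR-196b-5p. For miR-196a-5p it lay at 184.1 kb in HoxB and 49.6 kb in HoxC, and for miR-615-3p at 91.2 kb. These distances follow from the same peaks as the counts, and those of the other mature miRNAs of the clusters are not reported here.

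The next protein-coding genes outside the clusters often had peaks, though many of these genes lie far off. The 3 nearest protein-coding genes on each side of the clusters, Evx1 and Evx2 among them, make 24 neighbours, of which 16 had an OSS_128167 peak (66.7%, against 37.8% of all protein-coding genes) with 8 passing the FDR limit of 0.05 (33.3%, against 11.5%). The neighbours are longer than Hox genes, with a median of 23.0 kb. Some lie far from their cluster, such as Cbx1 (420.4 kb), Cbx3 (671.7 kb) and Hnrnpa3 (894.0 kb). Within 100 kb of a cluster no side held more than 2 OSS_128167 peaks, the number above HoxD. Evx1 and Evx2, homeobox genes linked to HoxA and HoxD, also had no peak, at 52.6 kb from Hoxa13 and 6.71 kb from Hoxd13. Several neighbours share the stem of their symbol with a neighbour of another cluster, a grouping chosen after the values were seen. All of Cbx1, Cbx3 and Cbx5, which encode the HP1 proteins of heterochromatin, had a peak at an FDR of at most 0.05 inside them or within 1000 bp, with folds of 3.65, 4.64 and 3.96. Cbx1 and Cbx3 each had 2 peaks at that limit, and only the peak of highest fold is described here. That peak of Cbx1 lay inside the gene and those of Cbx3 and Cbx5 beyond the boundary. That of Cbx5 lay inside Hnrnpa1, the next gene, and was counted for both. At that limit there were also peaks at Hnrnpa1 and Hnrnpa3, which encode RNA-binding proteins, with folds of 4.34 and 4.64, and at Smug1, a DNA repair glycosylase, with a fold of 3.55. Of Atp5g1, Atp5g2 and Atp5g3, which encode the same subunit of ATP synthase, Atp5g2 alone had a peak (3.39, FDR 0.0421), and Calcoco1 and Calcoco2 had none. In the untreated list Skap1 was the 1 neighbour with a peak (fold 3.18, FDR 1).

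Homeobox genes outside the clusters were mixed. Of 18 genes known from the skeleton and limbs 5 had an OSS_128167 peak (27.8%, against 37.8% of all protein-coding genes). At the FDR limit of 0.05 there were 2 (11.1%, against 11.5%). These shares are below or near those of all genes and are no result about the list as a whole. Prrx1, a transcription factor of limb mesenchyme, had 34 peaks over its 70.0 kb, 10 of them at that limit, with a highest fold of 5.79 (FDR 1.79e-08). Prrx2 (3.36), Alx4 (2.67) and Alx1 (2.20) had peaks with FDRs of 0.0844, 0.202 and 0.676, while genes with none included Dlx3, Dlx5, Dlx6, Msx1, Msx2, Shox2, Pitx1, Barx1, Lhx2, Lhx9, Lmx1b and En1. The 6 ParaHox genes (Gsx1, Gsx2, Pdx1, Cdx1, Cdx2 and Cdx4), the sister group of the Hox genes with roles in gut, pancreas and brain, had none in either list, which with 6 genes allows up to 50%. Alx1 was the 1 skeletal homeobox gene with an untreated peak (3.35, FDR 1).

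Partners and regulators of Hox genes are read against 37.8% of all protein-coding genes with an OSS_128167 peak and 11.5% at the FDR limit of 0.05. The shares of the Polycomb genes (40%, and 6.67% at that limit) and the trithorax genes (44.4% and 0%) were near or below these and are no result about the lists. The TALE homeobox cofactors had peaks in 7 of 9 cases (77.8%), among long genes with a median of 139.2 kb, but only 1 passed the FDR limit of 0.05. Highest folds at members that did not pass it were those of Pbx3 (3.25), Meis2 (3.01, with 7 peaks), Meis1 (2.75), Pknox2 (2.71) and Pbx2 (2.58). The peak at Pbx2 lay beyond the gene boundary. In the untreated list Pbx3 had 1 peak (3.26, FDR 1). Polycomb genes had peaks in 6 of 15 cases, among them Ezh2, the histone H3 methyltransferase of the complex (3.54, FDR 0.000739), Eed (3.23), Jarid2 (2.87), Cbx7 (2.87) and Suz12 (2.63). The peak at Ezh2, which lay beyond the boundary of the gene, alone had an FDR of at most 0.05. Trithorax genes had peaks in 4 of 9 cases and 0 at that limit. The 4 were Kmt2a (2.93, beyond the gene boundary), Rbbp5 (2.87), Kdm6b (2.87) and Ash2l (2.63). Retinoic acid genes, whose signal is known to open the clusters from the anterior end, had peaks in 4 of 8 cases (50%). Highest folds were 3.95 at Rarb (FDR 0.0120), 2.94 at Cyp26b1, 2.58 at Rxra and 2.52 at Aldh1a2. Only Rarb, 651.5 kb long with 10 peaks, passed the FDR limit of 0.05 (12.5%, near the 11.5% of all protein-coding genes). With 8 genes neither share is a result about the list. In the untreated list the Polycomb, trithorax and retinoic acid genes had 0 peaks.

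**Figure D4:**
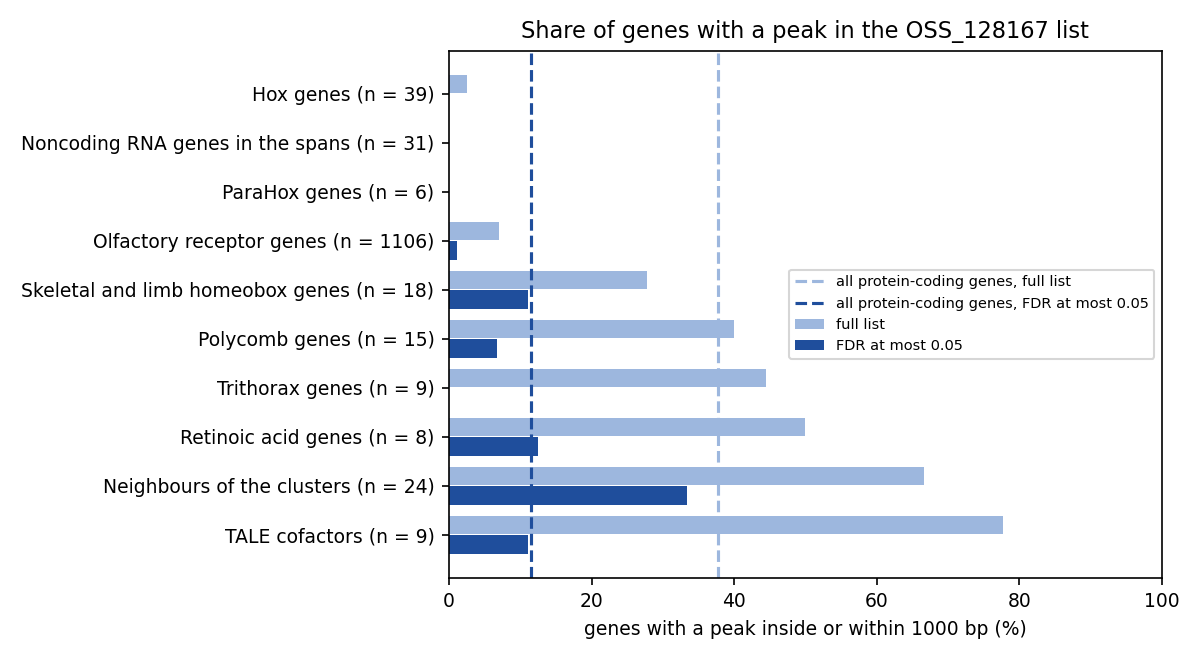
Share of genes (%) with an OSS_128167 peak inside them or within 1000 bp, for the full list (light bars) and for peaks with an FDR of at most 0.05 (dark bars). Dashed lines mark the shares of all protein-coding genes, 37.8% and 11.5%. The Hox bar ends at 2.56%, and the noncoding genes of the spans and the ParaHox genes have no bar.

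Olfactory receptor genes, which are silent in most tissues and also lie in clusters, were counted in the same way. In the OSS_128167 list 78 of 1106 had a peak (7.05%), of which 12 (1.08% of the family) passed the FDR limit of 0.05. The shares of all protein-coding genes were 37.8%, and 11.5% at that limit. The Hox share of 2.56% has an interval of 0.0649 to 13.5 that includes the 7.05% of the receptor genes. That interval takes the 39 genes as independent, which genes in 4 places are not. It cannot decide whether the shares differ. Receptor genes are shorter, with a median length of 0.95 kb. Sp7, a transcription factor of osteoblasts, lies 554.1 kb below HoxC and had 4 OSS_128167 peaks with a highest fold of 4.13 (FDR 0.00423).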

How the data were processed

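The authors used fastp and BWA with the build mm10, per the submitters' processing notes. How peaks were called, at which thresholds and with what use of the inputs is not given in the sources used here. The inputs were not analysed here. Each deposited list gives, per peak, a position counted from 1, the authors' fold enrichment (a ratio), a deposited p-value and FDR, and a pileup, the deposited height of signal. These values were used only within their own list.

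A peak counted at a gene when at least 1 bp of it lay inside the gene or within 1000 bp. The gene table gives boundaries only, and start sites came from the RefSeq promoter table. Each library's depth is unknown. Tables were handled with pandas 2.3.3 and numpy 2.4.6 in Python 3.11.15, intervals came from scipy 1.17.1 and plots from matplotlib 3.10.9. On simulated data 50 of 50 planted peaks were recovered, and a gene-by-gene recount of 300 genes gave 0 other counts and 0 other distances.

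The members and lists were chosen with earlier results of these data known. All 39 genes are accounted for, and in each other list up to 6 members of highest OSS_128167 fold and those with an untreated peak were named. Members without a peak and the neighbours Atp5g2 and Calcoco1 and Calcoco2 were named beyond that rule, after their values were seen. Protein sequences were not used here. A few members of the lists are counted but not reported by name here. Of the 15 noncoding genes listed by name 14 matched the table. Olfactory receptor genes, tiles, gaps, distances and flank counts were added later. Alternatives were other windows, peak centres, FDR and fold limits and other spans.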

Additional observations from a re-analysis of the deposited data

How the results depend on the processing

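With 1 library per condition no library could be left out. No paired analysis was possible because each condition has 1 Pol II library. Of 52 alternatives 37 left the count or share within 1.5 times its value and 15 moved it. Many of the 37 put a count of 0 under a stricter rule, where it can only stay 0. The tally is therefore no measure of stability. In the OSS_128167 list the count of 1 Hox gene held with a window of 0 or 5000 bp, with peak centres and with each peak given to the nearest Hox gene. It became 0 at an FDR of at most 0.05, at a fold of at least 3 and at annotated start sites, an alternative chosen after seeing the data. The last says nothing of stability, since Hoxc13 has no promoter entry and could not be counted. The 1 peak in the spans became 0 at the same FDR and fold limits, and the covered share 0% at the FDR limit, because the peak at Hoxc13 passes neither. At an FDR of at most 0.05 the OSS_128167 counts fell to 1 (TALE cofactors), 2 (skeletal homeobox), 1 (Polycomb), 0 (trithorax), 1 (retinoic acid) and 8 (neighbours), and the untreated counts of 1 among TALE cofactors, skeletal homeobox genes and neighbours each fell to 0. The unknown depth limits what an empty cluster can show.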

Other observations

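Within 1 Mb of the clusters the OSS_128167 peaks of highest fold differed in height from flank to flank. Below HoxA the highest was 8.88 (FDR 1.86e-25), in a peak 5121 bp long (chromosome 6, 51455976 to 51461096) at Hnrnpa2b1, which encodes an RNA-binding protein, and Nfe2l3, at 694.3 kb from the cluster. Below HoxB it was 4.10 (FDR 0.000319) at Snf8 and Ube2z, 147.6 kb away, and below HoxC 4.81 (FDR 3.7e-05) at Map3k12, 413.3 kb away. Above HoxC it was 4.34 (FDR 6.49e-05) at Hnrnpa1 and Nfe2, 210.5 kb away. Above HoxA it was 2.77 (FDR 0.191) at Jazf1, above HoxB 4.13 (FDR 8.8e-05) with no annotated gene within 1000 bp, and at HoxD 3.23 below (FDR 0.159) and 5.12 above (FDR 5.96e-06). The flanks differed in number as well, with 19 peaks below and 6 above HoxA, 21 and 27 at HoxB, 40 and 14 at HoxC, and 8 and 18 at HoxD. Of these, in the same order, 10 and 0, 3 and 7, 17 and 5, and 0 and 3 had an FDR of at most 0.05. These peaks were chosen as the highest after the values were seen.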
